A study of Mus musculus with 4 samples.

Results

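Type I interferon-stimulated antiviral genes are the genes that cells switch on when interferon alpha or beta binds its receptor at the cell surface. The 33 genes described here were chosen by symbol from a list of such genes, all 33 were found among the 23284 gene symbols of the series, and 25 of them had a mean of at least 1 FPKM (fragments mapped to a gene, scaled to transcript length and library size) over the libraries. They were compared between CCR7loCD137hi and CCR7hiCD137lo cells, 2 libraries each. Both populations are CD4 T cells, the helper lineage, taken from the spleen of BALB/c mice, grown under Th1 conditions and then separated on a cell sorter. The medium held interleukin-2 at 15 ng/ml, and interleukin-12 was added at 10 ng/ml. The culture time is 4 days in one label field and 5 days in another. CCR7, a chemokine receptor, guides T cells into lymph nodes. CD137, a member of the TNF receptor family, appears on T cells after activation and gives them a costimulatory signal. Nothing in the labels gives a genotype, an added interferon or a virus, or says whether the libraries came from separate mice or cultures, so p-values measure the spread between these samples only, which may be technical.

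In the textbook pathway, the type I interferon receptor activates the kinases JAK1 and TYK2, which phosphorylate STAT proteins. STAT2 takes part with IRF9 in a complex that binds the interferon-stimulated response element of target promoters. Interferon gamma, the cytokine made by Th1 cells, uses its own receptor with JAK1 and JAK2 and a dimer of STAT proteins, and it switches on part of the same genes, among them IRF1. The products block viral entry, translation or replication, sense foreign nucleic acid, or shut the signal off again.

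The sorting genes followed the labels. Ccr7 stood at 39.6 and 38.2 FPKM in CCR7loCD137hi libraries, against 93.4 and 118 FPKM in CCR7hiCD137lo libraries, and Tnfrsf9, which encodes CD137, at 158 and 184 FPKM in CCR7loCD137hi libraries, against 0.961 and 6.25 FPKM in CCR7hiCD137lo libraries. All 9 T cell markers were present, with summed levels of 1528 and 1749 FPKM in CCR7loCD137hi and 1558 and 1687 FPKM in CCR7hiCD137lo. The estimated depth relative to the deepest library was 0.564 and 0.306 in CCR7loCD137hi replicates 1 and 2, and 1 and 0.631 in CCR7hiCD137lo replicates 1 and 2. Over 10496 genes tested with limma, a linear model that shares spread across genes, 6 (0.0572%) passed an adjusted p of 0.05. None of the 25 members tested was among them.

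Promoter sequence was looked at first, since the type I pathway acts through a response element in target promoters. Of the 33 members, 25 had promoter windows in RefSeq (build GRCm38.p6, that is mm10), each from 250 bases before to 50 bases after a transcription start. The core of the interferon-stimulated response element was searched on both strands as GAAA, any 2 bases and GAAA again, and the STAT dimer site as TTCNNNGAA, which reads alike on both strands. The first was in a window of 12 of the 25 genes (48%), against 3.99% of all 27025 genes with a window. The second was in 9 of the 25 (36%), against 9.55% of all. These are matches of letters, not measured binding. The 150 bases before the start are shown for 4 members that stand for different patterns in the data: Isg15, the tested member with both CCR7loCD137hi libraries above the others, Trim30a, the member with the smallest p, Irf1, with a STAT dimer site, and Ifit1, with a mean under 1 FPKM. Capitals mark the response element core, or in Irf1 the STAT dimer site, and overlapping matches run together.
Isg15, chr4:156200819-156200968, minus strand: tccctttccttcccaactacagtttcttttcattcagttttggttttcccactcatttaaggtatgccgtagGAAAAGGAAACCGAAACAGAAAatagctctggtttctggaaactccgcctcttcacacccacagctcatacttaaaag
Trim30a, chr7:104465194-104465343, minus strand: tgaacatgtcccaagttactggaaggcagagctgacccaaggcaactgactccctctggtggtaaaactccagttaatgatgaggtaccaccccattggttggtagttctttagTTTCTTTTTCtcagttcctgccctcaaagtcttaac
Irf1, chr11:53769864-53770013, plus strand: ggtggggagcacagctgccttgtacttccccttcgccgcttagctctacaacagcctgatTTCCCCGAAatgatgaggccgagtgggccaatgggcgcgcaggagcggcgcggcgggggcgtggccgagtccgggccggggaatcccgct
Ifit1, chr19:34640739-34640888, plus strand: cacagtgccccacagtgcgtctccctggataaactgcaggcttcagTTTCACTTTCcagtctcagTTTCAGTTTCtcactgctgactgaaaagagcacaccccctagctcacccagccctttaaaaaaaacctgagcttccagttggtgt
In Isg15 the 3 overlapping cores ran from −78 to −57, counted in bases from the start. Trim30a had 1 core, at −36 to −27. Ifit1 had a core at −104 to −95 and another at −85 to −76, and Irf1 had its STAT dimer site at −90 to −82.

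**Figure D1:**
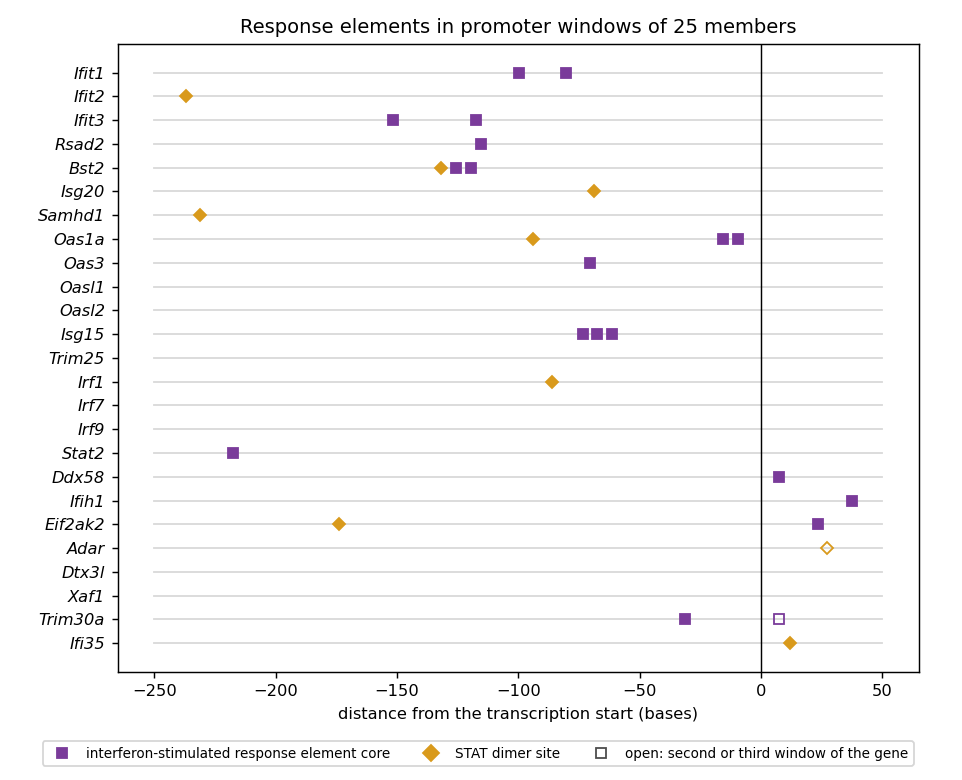
Position of response element cores (squares) and STAT dimer sites (diamonds) in the RefSeq promoter windows of 25 members. The x axis is the distance from the transcription start in bases, and each row is a gene. Open symbols lie in a further window of the same gene. Of the 25 genes, 12 hold a core and 9 a STAT dimer site.

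The members covered a wide range of levels, and several genes known for strong induction by type I interferon, Ifit1, Ifit3, Mx1 and Rsad2 among them, averaged under 1 FPKM. By mean FPKM, 1 member stood at 100 FPKM or more, 10 at 20 to 100, 9 at 5 to 20, 5 at 1 to 5 and 8 under 1. Samhd1 led, followed by Zbp1 (mean of 72.9 FPKM) and Irf1 (64.4 FPKM). At the other end were Ifit1, Mx1, Ifit3, Oasl1, Oas2, Oasl2, Rsad2 and Oas1a, from 0.932 down to 0.00718 FPKM. The 33 members together held 627 and 636 FPKM in CCR7loCD137hi libraries, against 702 and 728 FPKM in CCR7hiCD137lo libraries. That is 0.133% and 0.132% of the summed FPKM in CCR7loCD137hi, against 0.154% in each CCR7hiCD137lo library.

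**Figure D2:**
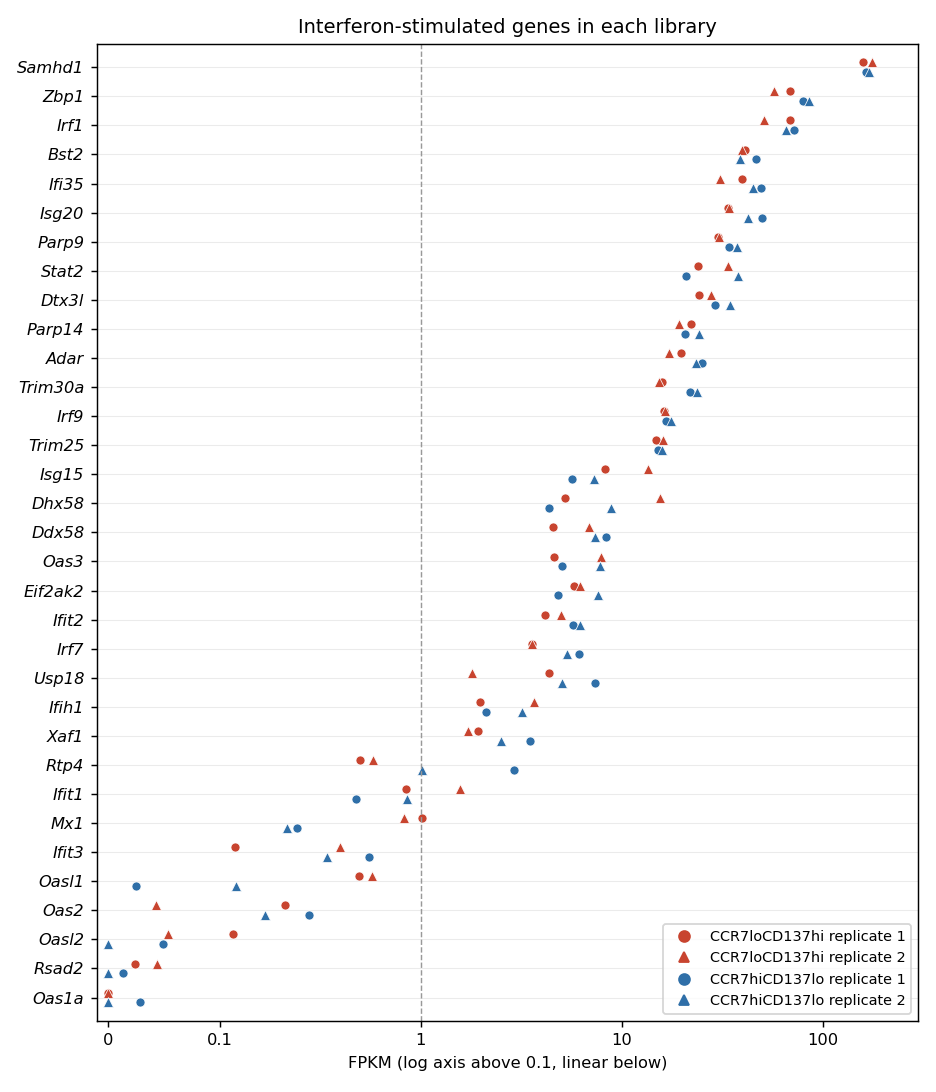
FPKM of the 33 members in each of 4 libraries, in order of mean level. The x axis is logarithmic above 0.1 FPKM and linear below it, colours mark the population, symbols the replicate, and the dashed line marks 1 FPKM. Samhd1 stands at 159 to 176 FPKM in all libraries, and 8 members have a mean under the dashed line.

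Most tested members had lower estimates in CCR7loCD137hi (21 of 25, beside 5467 of all 10496 genes tested), and none passed the adjusted test. The members' median log2 difference, on log2(FPKM + 1) and CCR7loCD137hi minus CCR7hiCD137lo, was −0.23, beside −0.01 over all genes tested. Single values ran from −0.87 for Usp18 to 0.64 for Isg15. Some of the 21 lower estimates were near 0, such as those of Trim25 and Eif2ak2, at −0.01 each. Both CCR7loCD137hi libraries were below both CCR7hiCD137lo libraries for 14 of the 25 (56%), where 21.5% of all genes tested had this order. The opposite order was seen for 1 of the 25, Isg15, where 16.6% of all genes tested had it. Rtp4, among the 14, passed the filter only through its CCR7hiCD137lo libraries, so its place in these counts depended on them. At an unadjusted limma p of 0.05, 4 members were lower (3.49% of all genes tested) and 0 higher (4.64% of all genes tested). The 4 were Trim30a, Irf7, Isg20 and Adar, and their adjusted p ran from 0.479 to 0.613. How many members passed that p depended on which library was left out. With a library left out, the log2 difference ran from −0.56 to −0.45 for Trim30a and from −0.64 to −0.47 for Irf7. It ran from −0.54 to −0.32 for Isg20 and from −0.47 to −0.28 for Adar.

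The 8 members under 1 FPKM were not tested, and 4 of them, Mx1, Oasl1, Oasl2 and Rsad2, had both CCR7loCD137hi libraries above the others. Of the 5000 genes above 0 with a mean under 1 FPKM, 23.0% had that order and 8.62% the opposite one. At the lower depth of the CCR7loCD137hi libraries 1 fragment gives a higher FPKM, so the order of Rsad2, with at most 1 fragment in a library, and of Oasl2, with at most 4, cannot be told apart from depth. Counted over all 33, 14 were below and 5 above, with a median of −0.11, where 17.3% of the 15496 genes above 0 were below and 18.6% above. In bulk samples fewer cells making a transcript and less of it per cell cannot be told apart.

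**Figure D3:**
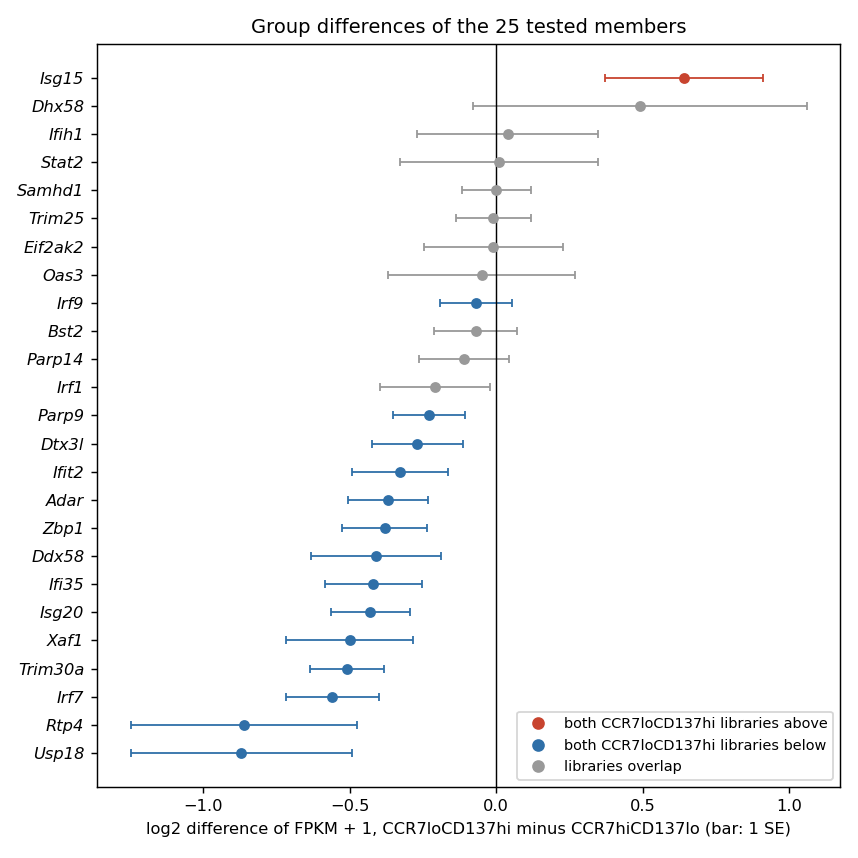
Log2 difference of FPKM + 1 between CCR7loCD137hi and CCR7hiCD137lo for the 25 members tested. Points are limma estimates and bars 1 SE, and colour shows whether the libraries of the populations overlap. Isg15 is at 0.64 with both CCR7loCD137hi libraries above, and 14 members, down to Usp18 at −0.87, have both below.

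Gene spans below are those of the authors' files on mm10, and all 33 members are annotated as protein-coding. The antiviral effectors split by level. Samhd1, which depletes the nucleotides that retroviruses need (chromosome 2, 157097529 to 157135222, minus strand), stood at 159 and 176 FPKM in CCR7loCD137hi libraries, against 164 and 171 FPKM in CCR7hiCD137lo libraries. The ranges overlap and the log2 difference was 0 to 2 decimals (SE 0.118). Isg20, an exonuclease that degrades RNA (chromosome 7, 78913765 to 78920396, plus strand), stood at 33.9 and 34.1 FPKM in CCR7loCD137hi, against 49.8 and 42.7 FPKM in CCR7hiCD137lo. Its libraries did not overlap, and the log2 difference was −0.43 (SE 0.135, limma unadjusted p = 0.0282, adjusted p = 0.564). Bst2, or tetherin, which holds budding virions at the cell surface, overlapped between the populations at 40.9 and 39.9 FPKM in CCR7loCD137hi, against 46.4 and 38.8 FPKM in CCR7hiCD137lo.

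The Ifit genes, whose products bind viral RNA and block its translation, are neighbours on chromosome 19, and Ifit2 was the one with a mean above 1 FPKM. Ifit2 stood at 4.14 and 4.97 FPKM in CCR7loCD137hi, against 5.73 and 6.22 FPKM in CCR7hiCD137lo, a log2 difference of −0.33 (SE 0.164). Ifit1 had 0.844 and 1.56 FPKM in CCR7loCD137hi, against 0.477 and 0.85 FPKM in CCR7hiCD137lo, each worth roughly 26 to 29 fragments, and the libraries overlap. Ifit3 had 0.119 and 0.396 FPKM in CCR7loCD137hi, against 0.552 and 0.342 FPKM in CCR7hiCD137lo, which overlap as well. The transcripts of Ifit3 share 51.2% of their 50-base words with Ifit3b, so which of these genes gave its reads is uncertain.

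Mx1, a dynamin-like GTPase against influenza viruses that is defective in many inbred mouse strains (chromosome 16, 97447035 to 97462906, minus strand), was low but apart between the populations. It stood at 1.02 and 0.823 FPKM in CCR7loCD137hi, against 0.242 and 0.215 FPKM in CCR7hiCD137lo. That is roughly 40 and 18 fragments in CCR7loCD137hi, against 17 and 9 in CCR7hiCD137lo, and the log2 difference was 0.64 with no test. Rsad2, or viperin, which makes a chain-terminating nucleotide, had about 1 fragment in each of 3 libraries and is listed at 0 in CCR7hiCD137lo replicate 2.

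Of the oligoadenylate synthetase family, whose active members make the oligoadenylates that switch on the ribonuclease RNase L, Oas3 was the single member above the filter. Oas3 (chromosome 5, 120753098 to 120777659, minus strand) stood at 4.59 and 7.9 FPKM in CCR7loCD137hi, against 5.02 and 7.81 FPKM in CCR7hiCD137lo. The replicate 2 library was the higher one in both populations, and the log2 difference between them was −0.05 (SE 0.319). Oasl1 (chromosome 5, 114923240 to 114937911, plus strand) stood at 0.491 and 0.575 FPKM in CCR7loCD137hi, against 0.0252 and 0.12 FPKM in CCR7hiCD137lo. These are roughly 12 and 8 fragments in CCR7loCD137hi, against 1 and 3 in CCR7hiCD137lo, and the log2 difference of 0.52 was not tested. Oas2, Oasl2 and Oas1a stayed at or below 0.277 FPKM in every library, and Oas1a is listed at 0 in 3 of 4. Oas1a shares 57.6% of its 50-base words with Oas1g.

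The ISG15 system held the members at both ends of the range. Isg15, a ubiquitin-like protein that is attached to other proteins and is also released (chromosome 4, 156199424 to 156200818, minus strand), stood at 8.31 and 13.5 FPKM in CCR7loCD137hi, against 5.66 and 7.3 FPKM in CCR7hiCD137lo. The libraries did not overlap, and the log2 difference was 0.64 (SE 0.27, limma unadjusted p = 0.0682, adjusted p = 0.648), and 0.32 without CCR7loCD137hi replicate 2. Usp18, the protease that takes ISG15 off again and also blocks the type I receptor (chromosome 6, 121245906 to 121270917, plus strand), stood at 4.37 and 1.81 FPKM in CCR7loCD137hi, against 7.34 and 5.04 FPKM in CCR7hiCD137lo. It had the opposite order, with a log2 difference of −0.87 (SE 0.378, limma unadjusted p = 0.0754, adjusted p = 0.656). Without CCR7loCD137hi replicate 1 it was −1.34, and without CCR7loCD137hi replicate 2 −0.40. The ratio of Isg15 to Usp18 within a library, chosen after the values were seen, was 1.9 and 7.42 in CCR7loCD137hi, against 0.77 and 1.45 in CCR7hiCD137lo. Since Isg15 was above and Usp18 below in both CCR7loCD137hi libraries, the ratio had to be higher there and adds no support. Trim25, a ligase for ubiquitin and ISG15 that activates RIG-I (chromosome 11, 88999403 to 89020293, plus strand), overlapped, at 14.8 and 16 FPKM in CCR7loCD137hi, against 15.1 and 15.8 FPKM in CCR7hiCD137lo.

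Among the transcription factors, Irf7 stood apart while the partners in the type I complex differed little. Irf7, which amplifies interferon alpha production (chromosome 7, 141263183 to 141266424, minus strand), stood at 3.57 and 3.6 FPKM in CCR7loCD137hi, against 6.14 and 5.37 FPKM in CCR7hiCD137lo. Both CCR7loCD137hi libraries were lower, with a log2 difference of −0.56 (SE 0.158, limma unadjusted p = 0.0199, adjusted p = 0.534). Irf1, an activator shared with the interferon gamma response (chromosome 11, 53770014 to 53778374, plus strand), overlapped at 69.1 and 50.9 FPKM in CCR7loCD137hi, against 72.2 and 65.6 FPKM in CCR7hiCD137lo.

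Stat2 differed more between replicate numbers than between populations, at 23.9 and 33.7 FPKM in CCR7loCD137hi, against 20.9 and 37.8 FPKM in CCR7hiCD137lo. Irf9, the DNA-binding partner of the STATs, was within 16.2 to 16.5 FPKM in CCR7loCD137hi, against 16.7 to 17.6 FPKM in CCR7hiCD137lo, a log2 difference of −0.07 (SE 0.123).

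The nucleic acid sensors were mixed. Zbp1, a sensor of Z-form nucleic acid that can trigger cell death (chromosome 2, 173206612 to 173218922, minus strand), stood at 69.2 and 57.3 FPKM in CCR7loCD137hi, against 79.7 and 85.5 FPKM in CCR7hiCD137lo. The libraries did not overlap, and the log2 difference was −0.38 (SE 0.145, limma unadjusted p = 0.0503, adjusted p = 0.613), or −0.25 without CCR7loCD137hi replicate 2. Adar, which edits adenosine in double-stranded RNA and so hides it from sensors (chromosome 3, 89715022 to 89753455, plus strand), stood at 19.8 and 17.3 FPKM in CCR7loCD137hi, against 25 and 23.5 FPKM in CCR7hiCD137lo. It was lower in both CCR7loCD137hi libraries, with a log2 difference of −0.37 (SE 0.137, limma unadjusted p = 0.0453, adjusted p = 0.613). Of its annotated exon bases, 16.8% overlap Chrnb2 on the other strand, and whether the authors' counting used strand is not given in the sources used here.

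Ddx58, which encodes the viral RNA sensor RIG-I, was also below in both, at 4.57 and 6.89 FPKM in CCR7loCD137hi, against 8.33 and 7.34 FPKM in CCR7hiCD137lo, with a log2 difference of −0.41, and −0.16 without CCR7loCD137hi replicate 1. Its sister genes overlapped. Ifih1, which encodes MDA5, stood between 1.97 and 3.65 FPKM in CCR7loCD137hi and between 2.12 and 3.2 FPKM in CCR7hiCD137lo. Dhx58, which encodes the regulator LGP2, stood at 5.24 and 15.6 FPKM in CCR7loCD137hi, against 4.33 and 8.85 FPKM in CCR7hiCD137lo, and CCR7loCD137hi replicate 2 alone was above 10 FPKM. Its log2 difference was 0.49 (SE 0.57), and −0.22 without that library. Eif2ak2, or PKR, the kinase that stops translation when it meets double-stranded RNA, overlapped at 5.79 and 6.24 FPKM in CCR7loCD137hi, against 4.8 and 7.64 FPKM in CCR7hiCD137lo.

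Parp9, Dtx3l and Parp14 lie side by side on chromosome 16 and encode an ADP-ribosyltransferase, its ubiquitin ligase partner and a related ADP-ribosyltransferase. Parp9 (35938470 to 35972621, plus strand) stood at 30.2 and 30.6 FPKM in CCR7loCD137hi, against 34.1 and 37.4 FPKM in CCR7hiCD137lo. Dtx3l (35926515 to 35939027, minus strand) stood at 24.4 and 27.8 FPKM in CCR7loCD137hi, against 29 and 34.7 FPKM in CCR7hiCD137lo. Both were below in each CCR7loCD137hi library, with log2 differences of −0.23 (SE 0.123) and −0.27 (SE 0.155), while Parp14 overlapped (−0.11, SE 0.154). Parp9 and Dtx3l start head to head and share 458 exon bases on opposite strands, which is 9.4% of those of Parp9, and whether reads there were split by strand is not given in the sources used here.

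The remaining induced genes, Trim30a, Xaf1, Rtp4 and Ifi35, all lay below in CCR7loCD137hi. Trim30a, a TRIM family protein that restrains NF-kB signalling (chromosome 7, 104409026 to 104465193, minus strand), stood at 15.9 and 15.4 FPKM in CCR7loCD137hi, against 21.8 and 23.6 FPKM in CCR7hiCD137lo. With a log2 difference of −0.51 (SE 0.126) it had the smallest p of the members (limma unadjusted p = 0.0123, adjusted p = 0.479). It shares 5.98% of its 50-base words with Trim30d. Rtp4, which encodes a receptor transporter protein (chromosome 16, 23609919 to 23614222, plus strand), stood at 0.501 and 0.576 FPKM in CCR7loCD137hi, against 2.9 and 1.01 FPKM in CCR7hiCD137lo. Its log2 difference of −0.86 (SE 0.386) rested much on CCR7hiCD137lo replicate 1 and was −0.38 without it. With a mean of 1.25 FPKM, Rtp4 passed the filter only through the CCR7hiCD137lo libraries, where it is high.

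Ifi35, a leucine zipper protein that is a partner of NMI (chromosome 11, 101448412 to 101458701, plus strand), stood at 39.5 and 31 FPKM in CCR7loCD137hi, against 49.3 and 45.2 FPKM in CCR7hiCD137lo (−0.42, SE 0.165, and −0.25 without CCR7loCD137hi replicate 2). Of its exon bases 16.8% overlap an antisense gene, Gm11626. Xaf1, which antagonises the caspase inhibitor XIAP, stood at 1.93 and 1.71 FPKM in CCR7loCD137hi, against 3.5 and 2.51 FPKM in CCR7hiCD137lo.

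Set against the promoter matches, the 8 tested members with a response element core had a median log2 difference of −0.03, from −0.51 for Trim30a to 0.64 for Isg15, with 2 of them below and 1 above in both CCR7loCD137hi libraries. The 11 tested members whose window had no such match had a median of −0.33, with 8 below and 0 above, where 21.5% of all genes tested were below and 16.6% above. The 8 with a STAT dimer site had a median of −0.27 and the 11 without −0.07. Usp18, Dhx58, Zbp1, Parp9, Parp14 and Rtp4 had a log2 difference but no window, so the splits leave them out. Their log2 differences ran from −0.87 for Usp18 to 0.49 for Dhx58. These splits are descriptions of a few genes and were not tested.

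The signalling genes upstream had differences of both signs. Genes for type I interferon were absent or nearly so: the 11 interferon alpha genes in the files, Ifnab, Ifnk and Ifne are listed at 0 in every library, and Ifnb1 had 0.152 FPKM in CCR7loCD137hi replicate 1 and 0 in the others. Ifnz stood between 0.114 and 0.153 FPKM in CCR7loCD137hi and between 0.0799 and 0.0955 FPKM in CCR7hiCD137lo. Ifng, the gene of interferon gamma, stood at 215 and 90.8 FPKM in CCR7loCD137hi, against 15.3 and 27.8 FPKM in CCR7hiCD137lo, a log2 difference of 2.70 (SE 0.505, limma unadjusted p = 0.0041, adjusted p = 0.368). Of the receptor genes, Ifngr1 was above in both libraries, at 77 and 78.2 FPKM in CCR7loCD137hi, against 33.1 and 39.5 FPKM in CCR7hiCD137lo (1.08, SE 0.139, limma adjusted p = 0.243). The type I receptor genes Ifnar1 and Ifnar2 overlapped, at log2 differences of 0.08 (SE 0.14) and −0.12 (SE 0.193).

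Jak2, a kinase of the interferon gamma receptor, stood at 16.1 and 16.3 FPKM in CCR7loCD137hi, against 22 and 23.7 FPKM in CCR7hiCD137lo (−0.47, SE 0.124, limma adjusted p = 0.501). Of the 8 transducers and coactivators listed, 4 (50%) lay below and 3 (37.5%) above, with 0 called. Among all genes tested, 21.5% lay below and 16.6% above.

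**Figure D4:**
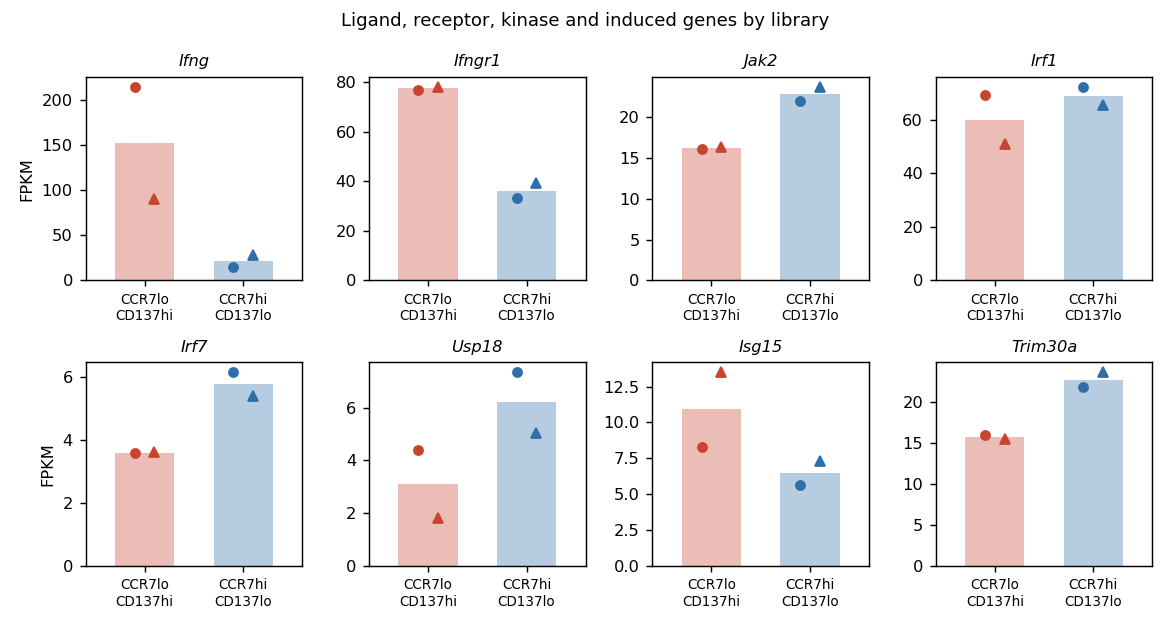
FPKM of the interferon gamma gene, its receptor, Jak2 and 5 members in each library. Bars are means of 2 libraries, circles replicate 1 and triangles replicate 2, and each panel starts at 0. Ifng and Ifngr1 are higher and Jak2, Irf7, Usp18 and Trim30a lower in both CCR7loCD137hi libraries, Isg15 is higher, and Irf1 overlaps.

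Brakes on the signal were close to level. The 14 listed had a median of −0.05, with 4 (28.6%) below, 2 (14.3%) above and 0 called. Among all genes tested, 21.5% were below and 16.6% above. Socs1, the main suppressor of interferon gamma signalling, stood at 68.9 and 85.2 FPKM in CCR7loCD137hi, against 63.3 and 92.2 FPKM in CCR7hiCD137lo. Socs2 stood at 108 and 102 FPKM in CCR7loCD137hi, against 139 and 138 FPKM in CCR7hiCD137lo (−0.39, SE 0.11, limma adjusted p = 0.531), and Cish, the most expressed, overlapped. The 14 tested adaptors and kinases of nucleic acid sensing had a median of −0.14, with 5 (35.7%) below, 3 (21.4%) above and 0 called. Trim56, a ubiquitin ligase of that pathway, stood at 5.01 and 5.1 FPKM in CCR7loCD137hi, against 7.15 and 7.75 FPKM in CCR7hiCD137lo (−0.48, SE 0.142, limma adjusted p = 0.537). Tmem173, the gene of the adaptor STING, was the most expressed of them and overlapped, at 102 and 63.5 FPKM in CCR7loCD137hi, against 119 and 86 FPKM in CCR7hiCD137lo.

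Other induced genes outside the 33 mostly had lower estimates in CCR7loCD137hi. Of 53 tested genes of other type I responses, 35 (66%) were below in both CCR7loCD137hi libraries and 6 (11.3%) above. Among all genes tested, 21.5% were below and 16.6% above. The 53 had a median of −0.40 and 0 called. Ms4a4c, a membrane protein gene, was the farthest apart, at 27.8 and 27.9 FPKM in CCR7loCD137hi, against 79.6 and 89.2 FPKM in CCR7hiCD137lo (−1.56, SE 0.125, limma adjusted p = 0.0876). Its relative Ms4a4b, the most expressed of the list, stood at 401 and 382 FPKM in CCR7loCD137hi, against 681 and 655 FPKM in CCR7hiCD137lo. Slfn1, a regulator of T cell growth, stood at 28.1 and 32.8 FPKM in CCR7loCD137hi, against 62.4 and 48.8 FPKM in CCR7hiCD137lo (−0.84, SE 0.177). Cxcl10, a chemokine gene induced by interferon gamma, had the opposite order, at 2.87 and 1.06 FPKM in CCR7loCD137hi, against 0.378 and 0.171 FPKM in CCR7hiCD137lo (1.15, SE 0.386). With a mean of 1.12 FPKM, it passed the filter only through the CCR7loCD137hi libraries.

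The 18 GTPases typical of the interferon gamma response, the GBP and IRG families, were all estimated below 0. Of these, 14 (77.8%) were below in both CCR7loCD137hi libraries, with a median of −0.44 and 0 called. Of the 10496 genes tested, 5467 were estimated below 0, and 21.5% were below in both CCR7loCD137hi libraries. Ifi47 stood at 97 and 61.6 FPKM in CCR7loCD137hi, against 179 and 136 FPKM in CCR7hiCD137lo (SE of the log2 difference 0.274, limma adjusted p = 0.523). Gbp9 stood at 16.3 and 17 FPKM in CCR7loCD137hi, against 27.6 and 29.5 FPKM in CCR7hiCD137lo (−0.75, SE 0.124). Tgtp1 and Tgtp2, near-identical neighbours between which reads can be split, had log2 differences of −0.52 and −0.57, and Igtp, the most expressed, −0.29. Ifi47 is also among the 53 tested genes of other type I responses. With each gene of these lists counted once, 48 of 70 tested genes (68.6%) were below and 6 (8.57%) above. Among all genes tested, 21.5% were below and 16.6% above. Neither list was compared with the members by a test.

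**Figure D5:**
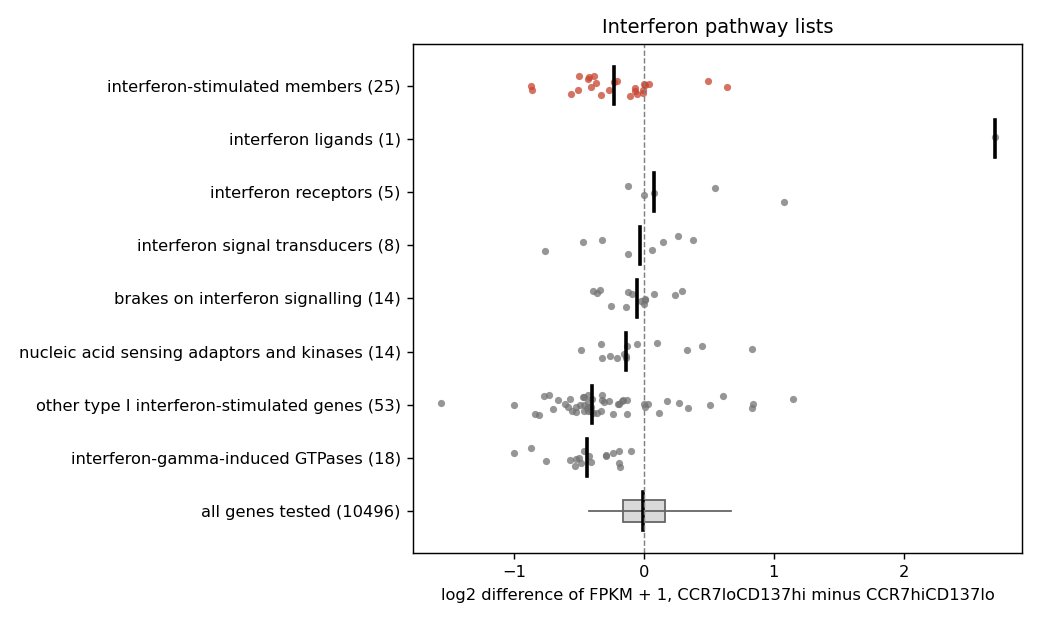
Log2 difference of FPKM + 1, CCR7loCD137hi minus CCR7hiCD137lo, for the tested genes of each interferon list. Points are genes, black bars medians, and numbers in parentheses count genes. The lowest row shows all 10496 genes tested, with a box from the first to the third quartile and a line from −0.42 to 0.67, the central 90%. Medians are −0.23 for the members, −0.40 for other type I genes and −0.44 for the GTPases.

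Genes used as markers of some other cell types had higher summed levels in CCR7loCD137hi. For the counts that follow, 16.6% of all genes tested were above in both CCR7loCD137hi libraries. Among the 5000 genes above 0 with a mean under 1 FPKM it was 23.0%. The 6 CD8 T and NK cell markers summed to 57.4 and 48.4 FPKM in CCR7loCD137hi, against 16.3 and 31.1 FPKM in CCR7hiCD137lo. Of the 6, 5 were above in both libraries and Cd8b1 overlapped. Eomes (26.5 and 28.5 FPKM in CCR7loCD137hi) and Klrk1 (16.5 and 15.5 FPKM) made up most of the CCR7loCD137hi sums. Cd8a stood at 3.68 and 0.218 FPKM in CCR7loCD137hi, against 0 and 0.0265 FPKM in CCR7hiCD137lo. Ncr1 stood at 1.91 and 0.251 FPKM in CCR7loCD137hi, and at 0 in both CCR7hiCD137lo libraries. The 7 B cell markers summed to 5.36 and 0.571 FPKM in CCR7loCD137hi, against 0.117 and 0.186 FPKM in CCR7hiCD137lo, with 4 of 7 above. The 11 myeloid and dendritic markers summed to 3.24 and 4.86 FPKM in CCR7loCD137hi, against 1.67 and 0.941 FPKM in CCR7hiCD137lo, with 6 of 11 above and 2 at 0 in every library, Csf1r and Flt3. Of 8 markers of plasmacytoid dendritic cells, the main makers of type I interferon, 0 were above and 3, Siglech, Klk1 and Ly6d, were at 0 in every library, with sums of 1.55 and 3.31 FPKM in CCR7loCD137hi, against 1.78 and 2.16 FPKM in CCR7hiCD137lo. The 8 erythroid and platelet markers summed to 0.927 and 1.56 FPKM in CCR7loCD137hi, against 0.112 and 0.133 FPKM in CCR7hiCD137lo, with 4 at 0 in every library and 2 above. Foxp3, the factor of regulatory T cells, stood at 47.9 and 11 FPKM in CCR7loCD137hi, against 0.853 and 0.181 FPKM in CCR7hiCD137lo. Whether such cells were present, and their part in the members' levels, was not tested. Leaving a library out does not remove this signal, since CCR7loCD137hi replicate 2 still had Foxp3 at 11 FPKM. Without CCR7loCD137hi replicate 1, the library with the most B cell and Foxp3 signal, the members' median was −0.21, with 8 estimates above 0. Then 16 members lay below and 6 above, where 39.5% of all genes tested lay below and 37.3% above.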

How the data were processed

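The authors deposited 1 table of FPKM values per library, with the columns of a Cufflinks gene table per the file headers. The build mm10 is named, per the submitters' processing notes, with the tools Cufflinks 2.0.2, TopHat 1.3.2 and Bowtie 0.12.8, and per the labels' protocols libraries came from a TruSeq Stranded mRNA kit. The sources used here give no annotation, filter or use of strand. Of 23746 entries, 462 were dropped as lower entries of a repeated symbol.

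Genes with a mean of at least 1 FPKM entered a limma 3.58.1 fit of log2(FPKM + 1) (R 4.3.3, variance trend, two-sided, Benjamini-Hochberg over all 10496 genes, threshold 0.05), after a check on simulated data. With 2 libraries a group, no exact permutation p is below 0.333. Such fold differences understate the change of low genes. Depth was estimated from low values, with an assumed fragment length of 200 nt. Among genes under 0.3 FPKM, the share of ratios to CCR7hiCD137lo replicate 1 that came within 0.002 (natural log) of what whole reads give was 67% to 68.3%. A 1 kb transcript with 3 fragments would have 0.258 and 0.475 FPKM in CCR7loCD137hi replicates 1 and 2, and 0.146 and 0.231 FPKM in CCR7hiCD137lo replicates 1 and 2. These and the fragment numbers (which use the longest GENCODE transcript) are approximate and cover counting error only. File starts were raised by 1.

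The members and lists were chosen with earlier results of these data known. Members were named in full if unadjusted p was under 0.05, if the populations did not overlap and differed by at least 0.5 in log2, or if most expressed in their role; others are named for their role. In each pathway list, up to 4 genes under that p and the most expressed were named. Ifnar1, Ifnar2, Socs1, Ifnb1, Ifnz and Foxp3 are named for their role. A gene that the rule names is not reported here by name. Alternatives were another pseudocount, other filters, quantile and median scaling, no trend, a replicate block and each library left out.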

Additional observations from a re-analysis of the deposited data

How the results depend on the processing

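No member passed the adjusted limma test under any of the 11 alternatives run, as in the fit reported, where 4 were lower and 0 higher at an unadjusted p of 0.05. The number of genes called over all tested, 6 as reported, was 1 without a filter, 2 with quantile normalization, 2 without a variance trend, 42 with the replicate block and 12 to 30 with a library left out. Members higher at an unadjusted p of 0.05 numbered 2 of 33 without a filter and 2 of 25 with the replicate block. The share of all genes tested that was higher also rose, from 4.64% as reported to 5.53% without a filter and 12% with the block. Members lower at that p numbered 10 with the replicate block and 0 to 5 with a library left out. Of all genes tested, 9.71% were lower at that p with the block, against 3.49% as reported, and 0.943% to 3.16% were lower with a library left out. Members above without overlap numbered 5 without a filter and 1 to 6 with a library left out, and those below 16 to 18. Of all genes tested, 23.3% to 37.4% were above and 32.1% to 39.5% below with a library left out, and 18.6% and 17.3% without a filter. The median difference was −0.11 without a filter and −0.32 to −0.19 with a library left out. A left-out library leaves 1 in its population, whose spread is assumed to be that of the other, and fewer libraries overlap less easily by construction.

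Over 28 genes, the tested members and 3 partner genes, 284 of 303 values under alternatives kept their sign, and 18 genes kept it throughout. Other filters, no variance trend and the replicate block leave a gene's estimate unchanged by construction. Their values are part of the 303 and could not turn, so these counts overstate how far the signs were tried. The sign turned for Samhd1 (0.01 with each library scaled to a common median, −0.07 to 0.07 with a library left out), Trim25 (0.00 with quantile normalization, −0.06 to 0.05 with a library left out) and Ifih1 (−0.06 with quantile normalization, −0.28 to 0.36 with a library left out). It turned only with a library left out for Oas3 (−0.38 to 0.29), Eif2ak2 (−0.30 to 0.27), Stat2 (−0.40 to 0.43), Dhx58 (−0.22 to 1.20), Irf1 (−0.43 to 0.01), Bst2 (−0.19 to 0.06) and Parp14 (−0.22 to 0.00). The cause was not tested.

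Replicate numbers 1 and 2 occur in both populations, but the labels do not say what they share. Deviations of same-numbered libraries correlated at 0.214 over genes, and 18 of 25 tested members moved the same way from one number to the other in both populations. The share of all genes tested that did so was not counted, so the number for the members has no background beside it. With 2 pairs the replicate block is given here only.

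Depth limits the 8 members under 1 FPKM, where Rsad2, Oas1a and Oasl2 rest on at most 4 fragments in a library.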
